A study of Mus musculus with 11 samples.

Results

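The 38 genes described here encode the contractile apparatus of striated muscle, its calcium-handling proteins and its energy enzymes. They were taken from a fixed list of symbols, without the myosin heavy chains, and all 38 were found among the 38392 genes of the files. RNA had been read from whole mouse eyes without lens and cornea in 5 WT and 6 *miR-211*−/− (KO) libraries, all from C57BL/6 animals 1–2 months old. The KO animals carried a constitutive deletion of the miR-211 precursor, made by homologous recombination, and the WT animals were their age-matched littermates. All KO animals were male and the WT animals of both sexes. The labels do not say which WT library came from which sex, so sex entered no fit and could not be told apart from genotype in these fits. The paper compared WT males and WT females separately with the KO males and reports that the enriched gene ontology terms were the same. In the paper's supplementary table, whose columns were matched to the libraries by their counts, the libraries carried names of 2 forms. These define 2 library series, called here after the form of the names. The mouse-number series holds WT replicates 1 and 2 and KO replicates 1 to 3. The age series holds WT replicates 3 to 5 and KO replicates 4 to 6. What the series mark beyond the names is not known.

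In striated muscle, thin filaments of actin, tropomyosin and troponin slide along thick filaments of myosin, and both are anchored in the sarcomere, whose borders are the Z-discs. An action potential opens the release channel of the sarcoplasmic reticulum, calcium binds troponin C and the filaments move, and a pump then returns the calcium to its store. Many of these proteins exist in a slow and a fast fibre isoform that come from separate genes. None of the tissues that the labels name (retina, retinal pigment epithelium, choroid, sclera and ciliary body) is striated muscle, whereas the extraocular muscles that turn the eye insert on the sclera. In whole-eye RNA, fewer cells of a type and less RNA per cell cannot be told apart.

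The window before the start of a gene often carries letters that muscle regulators recognise, and 28 of the 38 genes had such a window in RefSeq (GRCm38.p6). The 250 bases before each start were searched on both strands for the E-box CAGCTG, which reads the same on both strands and is bound by MyoD and its relatives, for the MEF2 motif and for the CArG box of serum response factor. The E-box was found for 16 of the 28 genes (57.1%), against 14.7% of all 27025 genes with a window. The MEF2 motif was found for 3 (*Casq2*, *Myoz2* and *Ttn*), which is 10.7% against 3.42% of all genes, and the CArG box for 3 (*Acta1*, *Ldb3* and *Myl3*), 10.7% against 1.62%. A match describes the letters of a window and shows no binding. The 150 bases before the start are given for 5 genes, in lower case with the motif in capitals. They were chosen after the search, to show a motif in highly expressed fast genes, in a slow gene and in genes that both fibre kinds use.
*Acta1* (CArG box, skeletal muscle actin, minus strand, chr8:123894776-123894925): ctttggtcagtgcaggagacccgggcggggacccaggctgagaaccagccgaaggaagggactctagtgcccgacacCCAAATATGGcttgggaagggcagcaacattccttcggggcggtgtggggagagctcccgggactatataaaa
*Mylpf* (E-box, fast regulatory light chain, plus strand, chr7:127211458-127211607): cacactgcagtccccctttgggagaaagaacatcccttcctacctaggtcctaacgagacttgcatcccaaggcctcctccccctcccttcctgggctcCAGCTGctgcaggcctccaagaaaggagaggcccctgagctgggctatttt
*Atp2a1* (E-box, fast calcium pump, minus strand, chr7:126463074-126463223): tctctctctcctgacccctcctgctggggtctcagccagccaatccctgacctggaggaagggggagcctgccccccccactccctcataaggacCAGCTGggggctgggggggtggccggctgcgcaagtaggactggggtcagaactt
*Tnni1* (E-box, slow troponin I, plus strand, chr1:135799271-135799420): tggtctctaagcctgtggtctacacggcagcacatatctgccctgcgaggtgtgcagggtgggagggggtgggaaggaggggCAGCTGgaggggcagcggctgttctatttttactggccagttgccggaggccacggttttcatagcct
*Des* (E-box, desmin, plus strand, chr1:75360142-75360291): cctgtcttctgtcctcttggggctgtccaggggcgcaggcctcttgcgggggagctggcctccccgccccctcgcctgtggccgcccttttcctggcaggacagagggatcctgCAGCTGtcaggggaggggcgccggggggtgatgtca
The E-box began 51 bases before the start of *Mylpf*, 55 before *Atp2a1*, 68 before *Tnni1* and 36 before *Des*, and the CArG box 73 before *Acta1*. The slow gene *Tnni1* and the fast genes *Mylpf* and *Atp2a1* thus carried the same 6 letters within 100 bases of the start used. For *Tnni1* and *Mylpf* this start lies inside the Gencode gene, which begins at base 135779434 of chr1 and 127208890 of chr7.

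The depth lay between 20282241 and 36317673 assigned read pairs a library. Lens transcripts summed to between 5.22 and 65.3 CPM in 8 libraries, and to 80349 CPM in WT replicate 4, 22423 in KO replicate 3 and 3116 in KO replicate 6. Rod transcripts, which mark the labelled tissue, were high in every library (26985 to 42687 CPM in sum). No other library stood apart in this way, and no 2 libraries of a genotype were copies of each other. The labels state only that the libraries are biological replicates, and the paper lists as many animals of each genotype as there are libraries. Elsewhere in its methods the paper speaks of 6 WT RNA samples. The p-values judge a difference against the spread between these libraries.

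Striated muscle RNA was present in every library, and its amount differed more between eyes of one genotype than between genotypes. Summed over the 38 genes, CPM on TMM-scaled library sizes was 15511, 13477, 2132, 8483 and 4803 in WT replicates 1 to 5. In KO replicates 1 to 6 the sum was 14406, 8758, 3953, 4382, 1893 and 3450 CPM. The highest library therefore held 8.19-fold more than the lowest, with a 7.27-fold range within WT and a 7.61-fold range within KO. The mean of the WT libraries was 8881 ± 5644 CPM (SD, n = 5) and that of the KO libraries 6140 ± 4655 CPM (SD, n = 6), so that the difference of the means was smaller than either SD. The 38 genes took up between 0.198% and 1.55% of all assigned read pairs.

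By gene length, fast fibre genes led the list. Mean FPKM, which is scaled to length, was 550 for *Tnnt3*, the fast troponin T, 545 for *Myl1*, the fast essential light chain, 509 for *Mylpf* and 413 for *Atp2a1*. *Acta1* followed with 407, *Tnni2*, the fast troponin I, with 403, and *Ckm*, the muscle creatine kinase, with 389. These neighbours in the order lay well within the spread between libraries, since *Tnnt3* alone ran from 113 to 1201 FPKM. At the other end stood *Xirp1*, an actin-binding protein of the Z-disc region, with a mean of 2.14 FPKM and *Myl3*, the slow essential light chain, with 2.36.

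**Figure D1:**
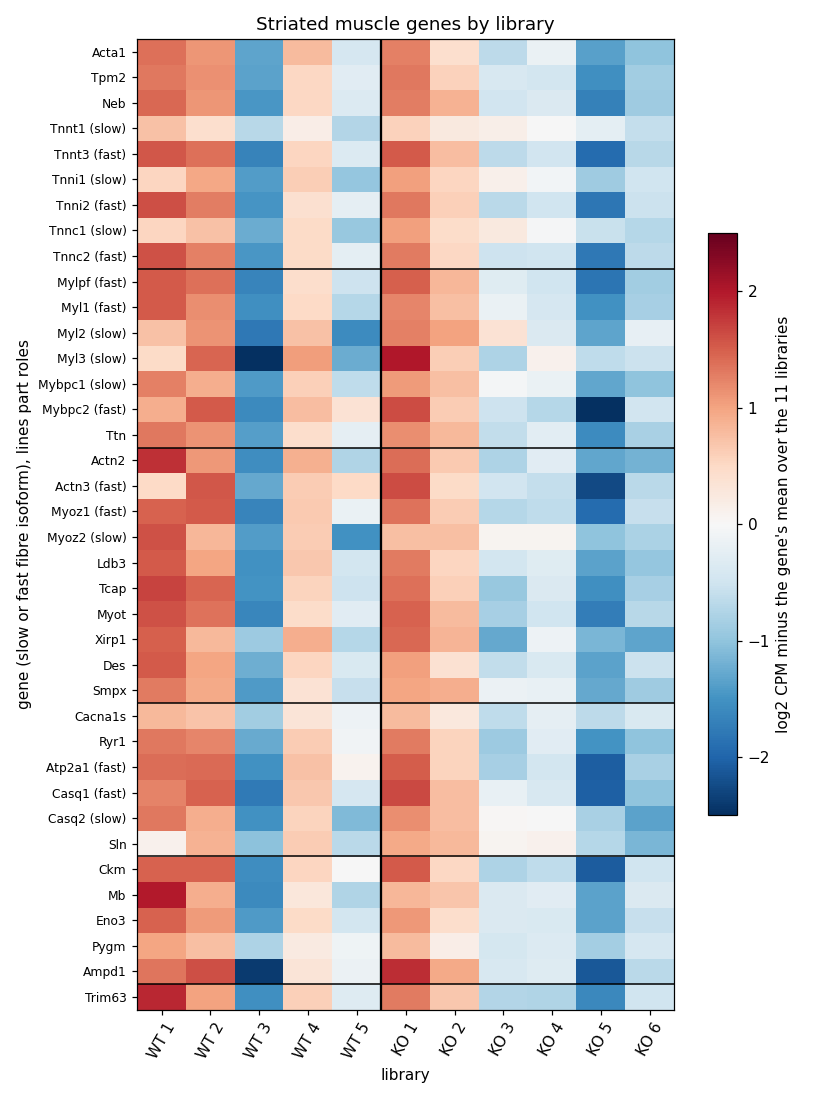
Colours show log2 CPM of each of the 38 genes (rows, parted by role) in each of the 11 libraries (columns), minus the mean of the gene over the 11 libraries. Nearly every row is red in WT 1, WT 2 and KO 1 and blue in WT 3 and KO 5, in both genotypes alike.

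The genes shared one order of libraries. For 32 of the 38 the 3 highest libraries were WT replicates 1 and 2 and KO replicate 1, and for 29 the 2 lowest were WT replicate 3 and KO replicate 5. WT replicate 1 was the highest library for 25 genes, KO replicate 1 for 12 and WT replicate 2 for 1. The lowest was KO replicate 5 for 20 genes, WT replicate 3 for 14, and WT replicate 5 and KO replicate 6 for 2 each. The heat map of the 38 genes shows both extremes in both genotypes. The median SD of log2 CPM over the 11 libraries was 1.10 for these genes and 0.196 for all genes tested, and the median ratio of the highest to the lowest library was 8.50 against 1.55. *Tnnt1*, the slow troponin T, had the smallest ratio (2.75) and *Myl3*, read at a few CPM, the largest (22.9).

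Genotypes were compared with edgeR's likelihood-ratio test on the 15767 genes that reached 1 CPM in 5 libraries or more, all 38 among them, and p-values were adjusted over all genes tested. None of the 38 passed the threshold of 0.1, where 0.00634% of all genes (1 gene) did. None had an unadjusted p under 0.05 either, where 2.09% of all genes did, 1.77% lower and the rest higher in KO; the quasi-likelihood test and DESeq2 also gave 0 on both counts. The smallest unadjusted p was 0.200, for *Des*. The fitted log2 fold change (KO minus WT) was below 0 for 34 of the 38, where 48.9% of all genes were below 0, and its median was -0.46 against 0.00 for all genes. Because the genes move together from library to library, these 34 are not independent counts. Each of the 38 95% intervals held 0, with standard errors between 0.29 and 0.70 on the log2 scale. Differences of this size were not detectable with this spread.

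**Figure D2:**
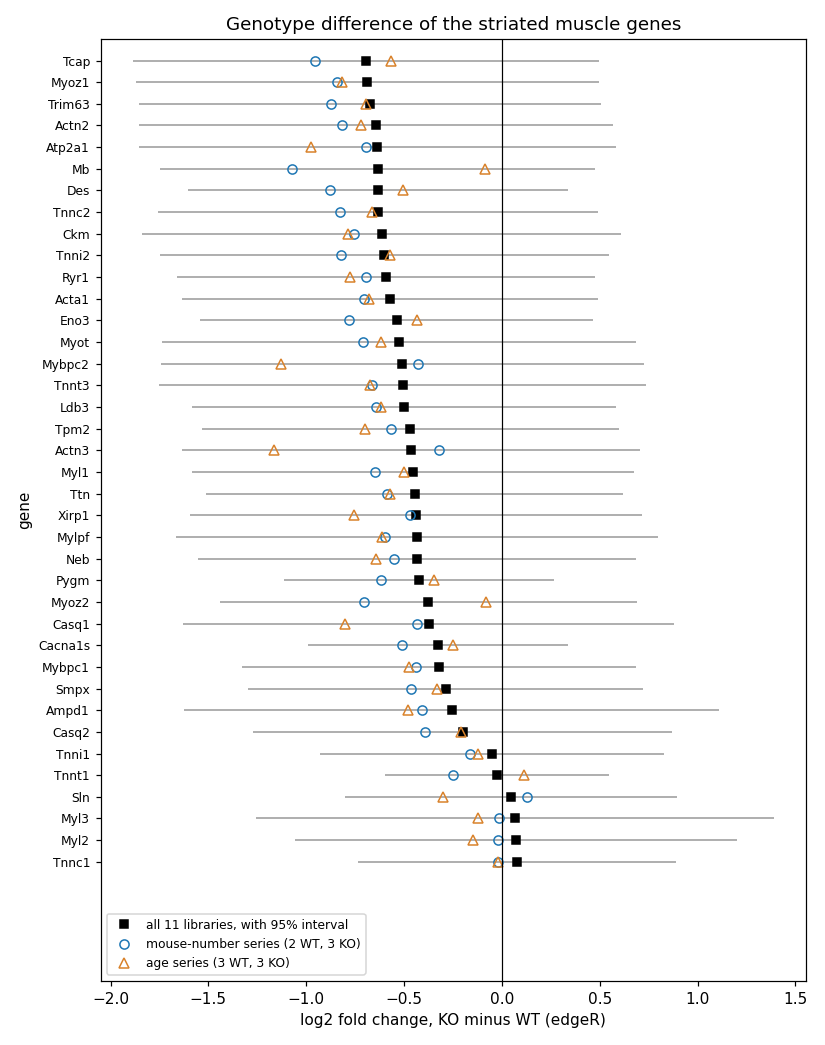
Squares give the log2 fold change (KO minus WT) of each of the 38 genes over all 11 libraries with its 95% interval, circles the same within the mouse-number series and triangles within the age series. The squares lie between -0.69 and 0.08, and every interval crosses 0.

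In the thin filament, *Acta1* was read at 1182, 980.1, 184, 787 and 343 CPM in WT replicates 1 to 5. In KO it ranged from 179.5 to 1092 CPM with a median of 348. The genotypes overlapped over nearly their whole range, and the log2 fold change was -0.57 with a standard error of 0.54 (edgeR, unadjusted p = 0.289). *Tpm2*, a tropomyosin, and *Neb*, the nebulin that runs along the actin filament, had log2 fold changes of -0.47 and -0.43. Of the 9 thin filament genes 8 were lower in KO, around a median fold change of -0.47 on the log2 scale. The exception was *Tnnc1*, the slow troponin C, which had the highest log2 fold change of all 38 (0.08), where WT libraries held 10.7 ± 5.64 CPM (SD, n = 5) and KO libraries 11.3 ± 5.195 CPM (SD, n = 6). *Tnnc2*, the fast troponin C, lay at -0.63.

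Among the 7 genes of the thick filament and titin, 5 were lower in KO. *Ttn*, the giant spring that spans the sarcomere from Z-disc to midline, was read at 891, 779, 139, 487 and 307 CPM in WT. Its KO values ran from 121 to 807 CPM around a median of 265, again within the WT range but for 1 library. The log2 fold change of *Ttn* was -0.45 with a standard error of 0.54. The slow light chains *Myl2* and *Myl3* were the 2 exceptions, at 0.07 each. *Mylpf*, *Myl1* and the fast myosin-binding protein *Mybpc2* lay at -0.43, -0.46 and -0.51, and its slow counterpart *Mybpc1* at -0.32.

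All 10 genes of the Z-disc and cytoskeleton had a log2 fold change below 0, with a median of -0.51. *Des*, the intermediate filament that ties neighbouring Z-discs together, was read at 312, 213, 46.2, 156 and 82.7 CPM in WT. In KO it ranged from 42.6 to 218 CPM with a median of 78.0. The overlap was again nearly complete, and the log2 fold change was -0.63 with a standard error of 0.50. *Tcap*, the telethonin that caps titin, had the lowest log2 fold change of the 38 (-0.69, standard error 0.61), followed by *Myoz1*, the fast calsarcin, which also rounds to -0.69. *Actn2* and *Actn3*, the α-actinins that cross-link actin at the Z-disc, lay at -0.64 and -0.46. *Ldb3*, *Myot*, *Xirp1*, *Myoz2* and *Smpx* made up the rest, between -0.53 and -0.29.

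**Figure D3:**
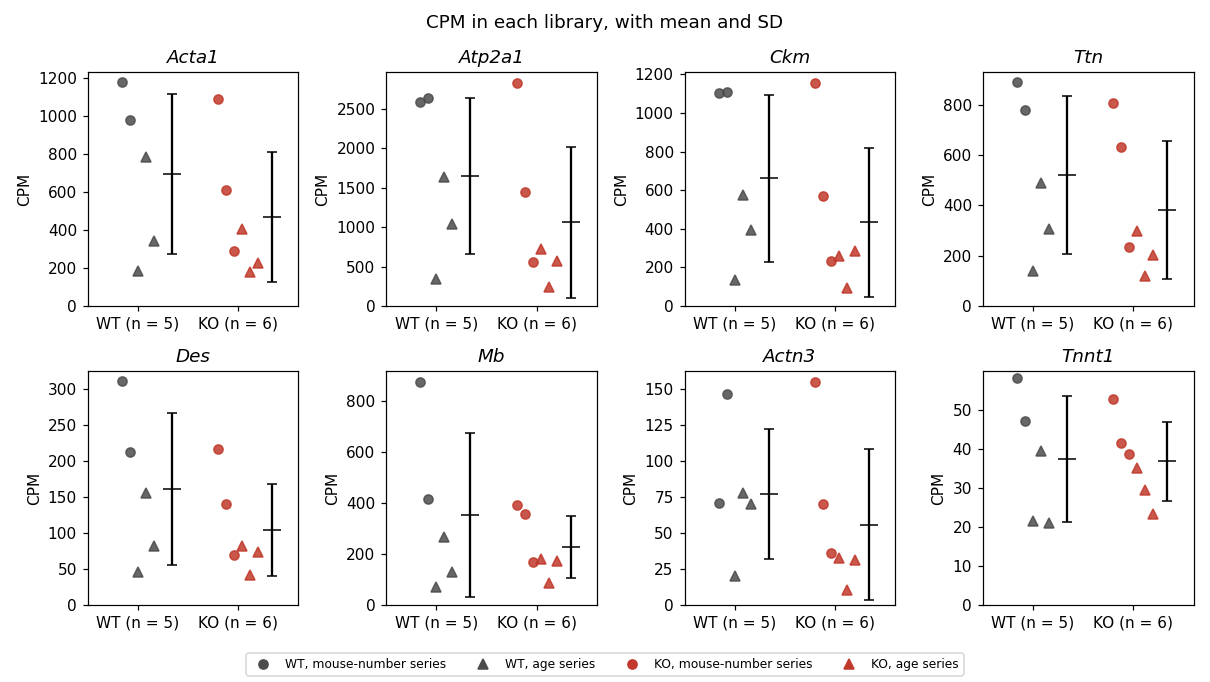
Each point is the CPM of 1 library for 8 of the genes, WT in grey and KO in red, circles for the mouse-number series and triangles for the age series, with the mean and SD of each genotype beside the points. In every panel the points of the genotypes overlap, and within each genotype the highest library belongs to the mouse-number series.

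For calcium release and uptake, 5 of 6 genes were lower in KO. *Atp2a1*, the calcium pump of fast fibres and by CPM the highest of the 38, was read at 2592, 2639, 346, 1636 and 1046 CPM in WT. In KO it ranged from 238 to 2835 CPM with a median of 644. KO libraries thus held both the highest and the lowest value of this gene, and its log2 fold change was -0.64 with a standard error of 0.62. The release channel *Ryr1* and its voltage sensor *Cacna1s* lay at -0.59 and -0.33, and the calcium stores *Casq1* (fast) and *Casq2* (slow) at -0.37 and -0.20. *Sln*, the sarcolipin that slows the pump, lay at 0.05, where WT libraries held 10.7 ± 5.52 CPM (SD, n = 5) and KO libraries 11.1 ± 5.73 CPM (SD, n = 6).

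The 5 genes of energy supply were all lower in KO, around a median fold change of -0.54 on the log2 scale. *Ckm* was read at 1101, 1106, 135, 576 and 393 CPM in WT, and between 94.2 and 1157 CPM with a median of 270.2 in KO. *Mb*, the oxygen store myoglobin, was read at 877, 419, 73.6, 269.7 and 131 CPM in WT and between 88.3 and 395 CPM with a median of 177 in KO. WT replicate 1 held the most *Mb* by a wide margin over WT replicate 2, the next library. The log2 fold changes of *Ckm* and *Mb* were -0.61 and -0.64. *Eno3*, *Pygm* and *Ampd1*, enzymes of glycolysis, glycogen breakdown and AMP turnover, lay at -0.54, -0.42 and -0.26. *Trim63*, the ubiquitin ligase of muscle atrophy, lay at -0.67, where WT libraries held 14.7 ± 11.4 CPM (SD, n = 5) and KO libraries 9.19 ± 7.17 CPM (SD, n = 6).

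Single genes were also compared by two-sided exact permutation tests of log2 CPM, with 462 ways to give 5 of the 11 libraries the WT label, in which the smallest possible p is 0.00216. The values ran from 0.316 for *Pygm* to 0.929 for *Casq2*. When genotypes were exchanged only within each series (200 ways, smallest possible p 0.005), the smallest was 0.115, again for *Pygm*.

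Within each series the genotype difference had the same sign for nearly all genes and no gene passed the threshold. In the mouse-number series 37 of 38 genes were lower in KO (*Sln*, at 0.13, was not), where 49.5% of all genes were lower, and the median log2 fold change was -0.61. In the age series 37 were lower (*Tnnt1*, at 0.11, was not), where 49.2% of all genes were, and the median was -0.57. No gene of the 38 had an adjusted p under 0.1 in either series, where 0.0444% of all genes did in the first and 0.241% in the second; the quasi-likelihood test also called 0 in both. An unadjusted p under 0.05 was reached by 2 genes in the mouse-number series, against 3.27% of all genes, and by 1 in the age series, against 4.12% (2.65% and 3.46% when only genes lower in KO are counted). They were *Mb* (log2 fold change -1.07, edgeR unadjusted p = 0.0247) and *Myoz2* (-0.70, edgeR unadjusted p = 0.0360) in the former and *Actn3* (-1.16, edgeR unadjusted p = 0.0477) in the latter. All 3 KO libraries lay below both WT libraries of the mouse-number series for 4 genes, *Myoz1*, *Myoz2*, *Tcap* and *Mb*, where 10.7% of all genes did. In the age series this held for none of the 38, where 5.98% of all genes did.

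The values within each series moved with single libraries. The median of the mouse-number series stayed below 0 whichever library was left out, and that of the age series changed sign for WT replicate 4. Without WT replicate 4, which is also the library with the most lens RNA, the median of the age series was 0.04, only 16 of the 38 genes were lower in KO (48% of all genes), and 6 genes, all of slow fibres (*Myl2*, *Myl3*, *Myoz2*, *Tnnc1*, *Tnni1* and *Tnnt1*), were higher at an unadjusted p under 0.05 (1.03% of all genes). Without WT replicate 3, the WT library with the least muscle RNA, 24 genes of that series were lower at an unadjusted p under 0.05 (8.64% of all genes), and *Actn3* passed the threshold, as 1.12% of all genes did (edgeR adjusted p = 0.0857, log2 fold change -1.56). In the mouse-number series, leaving out KO replicate 1, the KO library with the most muscle RNA, gave 28 such genes, all lower (4.83% of all genes), at a median of -1.05. Leaving out WT replicate 1 there gave 0 at a median of -0.25, and leaving out WT replicate 2 brought *Mb* (edgeR adjusted p = 0.0915) and *Myoz2* (0.0765) past the threshold, where 4.55% of all genes passed, and in both cases the single remaining WT library was assumed to vary as the KO libraries do. Over all 11 libraries, leaving out KO replicate 1 gave 10 genes with an unadjusted p under 0.05, all lower (3.75% of all genes), and none past the threshold.

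Whether the genotype difference itself differed between the series was tested with an interaction term. None of the 38 passed the threshold, where 0.019% of all genes did, and none had an unadjusted p under 0.05, where 2.71% did; by the quasi-likelihood test both counts were also 0. The smallest unadjusted p was 0.203, for *Mb*, whose log2 fold change was -1.07 in one series and -0.09 in the other. *Actn3* (-0.32 and -1.16) followed the opposite order (edgeR unadjusted p = 0.373). Without WT replicate 4, 4 genes (*Mb*, *Myl2*, *Myoz2* and *Tnnt1*) had an unadjusted p under 0.05 in this test, where 1.68% of all genes had one in that direction, and none passed the threshold.

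For most of the genes the larger part of the spread was shared with the others. When the median log2 CPM of the other 37 genes in the same library was subtracted, the SD over the 11 libraries became smaller for 37 of the 38, and its median went from 1.10 to 0.32. *Des* (0.18) and *Acta1* (0.19) followed the common level most closely. Others kept most of their spread, such as *Sln* (0.68 after subtraction and 0.77 before it), *Tnnc1* (0.63 and 0.74) and *Cacna1s* (0.55 and 0.62). *Tnnt1* alone had a larger SD after subtraction (0.73) than before it (0.51), and its level moved less from library to library than that of any other of the 38 genes.

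After this subtraction the slow and fast isoforms parted. Each of the 8 slow genes was higher in KO than in WT relative to the other genes, by 0.29 (*Mybpc1*) to 0.97 (*Myl2*) on the log2 scale with a median of 0.76. Without the subtraction their fitted log2 fold changes ran from -0.38 to 0.08, and 5 of the 8 were lower in KO. The 38 genes lay at a median of -0.46, so subtracting their level raises any gene that differs less. Of the 10 fast genes 5 were higher and 5 lower, between -0.21 (*Atp2a1*) and 0.20 (*Myl1*). Of the 20 genes of neither class 17 were higher as well, so a value above 0 was not particular to slow genes. The 20 values ran from -0.15 (*Ckm*) to 0.73 (*Sln*) around a median of 0.12. By library, the median of the slow genes around their own mean was lowest in WT replicate 1 (-0.82) and WT replicate 5 (-0.73) and highest in KO replicate 3 (0.83) and KO replicate 5 (0.69). WT replicates 2, 3 and 4 lay at -0.37, -0.11 and -0.01, and KO replicates 1, 2, 4 and 6 at -0.20, 0.15, 0.50 and 0.15. Of the KO libraries only replicate 1 fell within the WT range, and the others lay above it. The median of the fast genes was lowest in KO replicate 5 (-0.51) and otherwise between -0.20 and 0.28. These differences are a description of a pattern noticed in the data and were not tested.

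**Figure D4:**
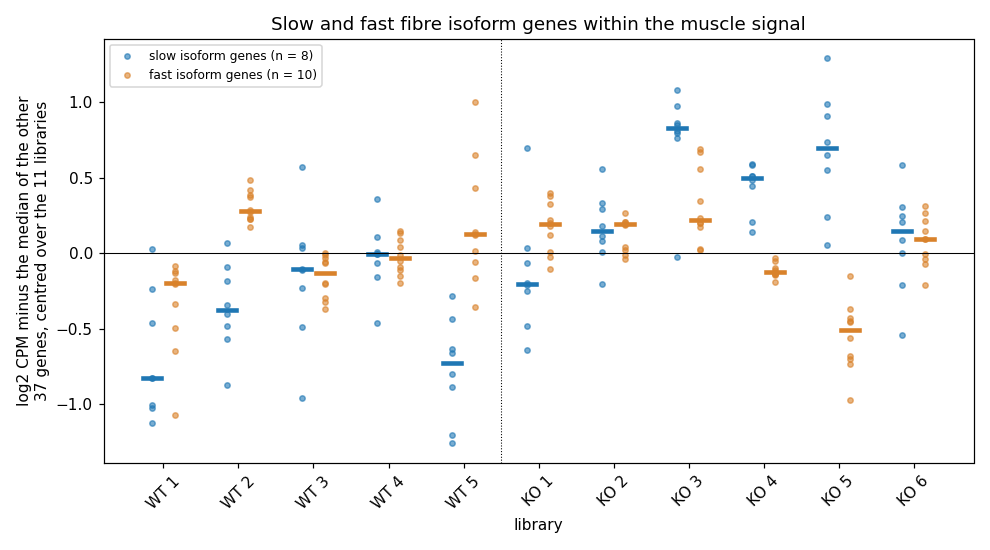
Points give, for each of the 8 slow (blue) and 10 fast (orange) fibre isoform genes, log2 CPM minus the median of the other 37 genes in the same library, centred on the mean of the gene over the 11 libraries, and bars the medians. The slow genes lie lowest in WT 1 and WT 5 and highest in KO 3 and KO 5, and the fast genes lowest in KO 5.

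The ratio of fast to slow partner, each in FPKM, restates this pattern, since it is built from the same slow and fast genes and the same libraries. For the troponin I pair, *Tnni2* over *Tnni1*, it was 44.5, 26.6, 19.2, 18.3 and 35.98 in WT replicates 1 to 5 and between 11.3 and 26.3 in KO. For troponin T, *Tnnt3* over *Tnnt1*, it ran from 4.67 to 19.5 in WT and from 2.98 to 19.7 in KO. For troponin C, *Tnnc2* over *Tnnc1*, the extremes were 39.0 in WT replicate 1 and 7.93 in KO replicate 5. In 7 of the 8 pairs the lowest ratio was that of KO replicate 5, the library with the least muscle RNA, and in all 8 the WT median exceeded the KO median. The exception was *Mylpf* over *Myl2*, lowest in KO replicate 3 (18.6). Fast genes outweighed their slow partners in every library for 7 pairs, up to 533-fold for *Myl1* over *Myl3*. The myosin-binding proteins went the other way, *Mybpc2* reaching 0.0971 to 0.541 of the slow form *Mybpc1*. The ratios of the pairs share their libraries and were not tested.

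Other muscle genes followed the same order of libraries. Of a list of 75 further striated muscle genes 70 were tested, of which 68 were lower in KO around a median fold change of -0.50 on the log2 scale. None passed the threshold and none had an unadjusted p under 0.05 over all libraries. In the mouse-number series 11 of the 70 did, all lower, where 2.65% of all genes were lower at that p, and in the age series 1, also lower, where 3.46% were. The highest by FPKM were *Pvalb*, the calcium buffer parvalbumin, which retinal interneurons also make (251 FPKM on average), *Ckmt2* (111), *Hspb6* (101) and *Cox8b* (97.0). The smallest unadjusted p-values were those of *Myod1*, the muscle regulator (log2 fold change -0.70, edgeR unadjusted p = 0.0613), *Dysf* (-0.45, edgeR unadjusted p = 0.0667), *Fbxo32* (-0.21, edgeR unadjusted p = 0.0690) and *Ankrd2* (-0.90, edgeR unadjusted p = 0.105).

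Of 9 myosin heavy chain genes 8 were tested and all 8 were lower in KO, at a median of -0.49. *Myh13*, which in adult mammals is known as the heavy chain of extraocular and laryngeal muscle, had the widest range. It was read at 291, 287, 1.12, 140.3 and 25.4 CPM in WT and at 347, 208, 2.33, 37.4, 2.32 and 59.1 CPM in KO replicates 1 to 6. The libraries with the most muscle RNA thus held the most *Myh13*, and the 3 with the least of it were WT replicate 3 and KO replicates 3 and 5. The sarcomeric heavy chains share long stretches of sequence, so RSEM may divide reads between them, and the same holds for *Acta1* and the other actins.

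Markers of other tissues that lie around the eye also moved between libraries, and their part in the values of the muscle genes was not tested. Adipocyte transcripts summed to 594, 369, 54.8, 211 and 114 CPM in WT and to 332, 111, 32.6, 46.2, 34.8 and 49.4 CPM in KO, highest in the same 3 libraries as the muscle genes. Cornea and conjunctiva transcripts ran from 1518 CPM in WT replicate 3 to 10607 in KO replicate 2. Tendon and sclera transcripts ran from 664 CPM in KO replicate 5 to 3278 in WT replicate 4. The sums of smooth muscle transcripts, from 529 to 691 CPM, and of those of the retinal pigment epithelium, from 1749 to 2267 CPM, varied little beside them. Single smooth muscle genes varied more than their sum. Their ratio of the highest to the lowest library ran from 1.24 to 5.37 with a median of 2.71. Rod transcripts were lowest, at 26985 CPM, in WT replicate 1, where the muscle genes were highest. Schwann cell transcripts (601 to 1593 CPM) and blood transcripts (145 to 1940 CPM) were spread over the libraries in another order.

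**Figure D5:**
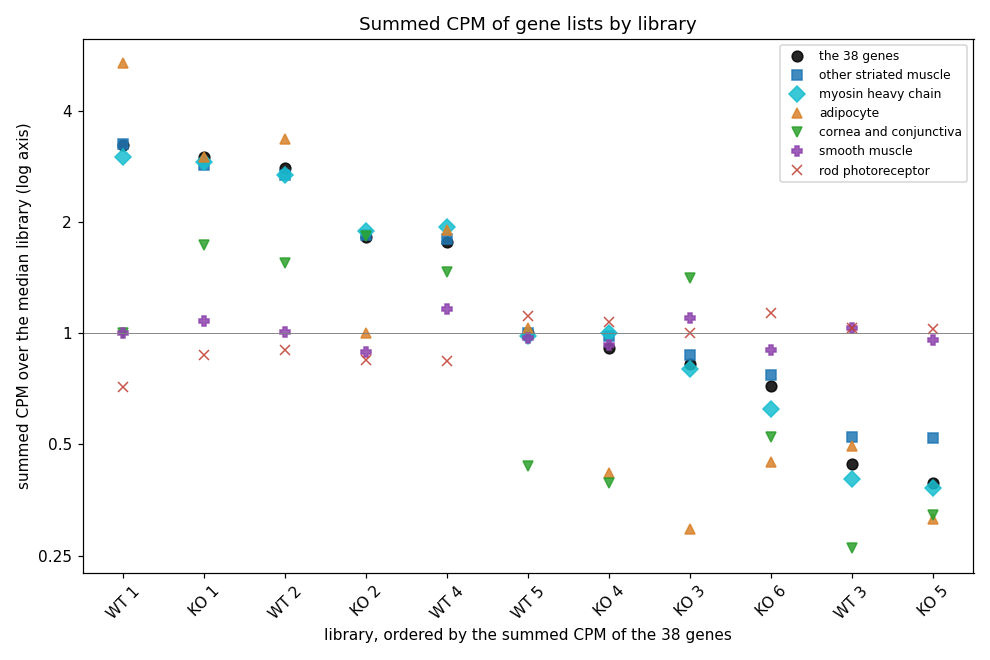
Each symbol is the summed CPM of a gene list in 1 library over its median library, on a log axis, with the libraries ordered by the sum of the 38 genes. The other striated muscle genes and the myosin heavy chains follow the 38 genes, adipocyte transcripts are highest in the same 3 libraries, and smooth muscle and rod transcripts stay near 1.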

How the data were processed

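The authors read 100-nt pairs and used RSEM 1.2.19 to assign them to Gencode M4 genes. The values the authors deposited are the expected count of a gene, an unscaled estimate of its read pairs, and its FPKM, which is scaled to length and mapped fragments. A row of a transgene with 0 counts was left out. Expected counts were rounded, scaled by TMM and tested with the likelihood-ratio test of edgeR 4.0.16 under R 4.3.3 (genotype alone in the model, at least 1 CPM in at least 5 libraries, Benjamini-Hochberg threshold 0.1). DESeq2 1.42.0 was an alternative. Series and interaction fits used the same genes, and log2 CPM a prior count of 2. FPKM entered no test. It served to compare levels between genes and for the ratios of fast to slow partners, which were set side by side over libraries and genotypes. The test was checked on simulated counts, drawn independently for each gene and with a smaller spread than that of the 38 genes. That check therefore does not speak for these genes. Between 20282241 and 36317673 read pairs per library left *Myl3*, the lowest of the genes by CPM, with at least 6 read pairs in each. The 38 genes, the other lists and the tests were chosen with earlier results of these data known. Genes named beyond their group are those with the highest FPKM, the extreme fold changes and the smallest p-values, the slow and fast pairs and 8 well-known muscle genes; those that a left-out library brought past a threshold, and *Myh13*, were named after their values were seen. Gene names came from Gencode M21 and promoter windows from RefSeq, on the same assembly. Alternatives were the quasi-likelihood test, other scalings and filters, a replicate block, a series term, and leaving out single libraries. The fit without the 3 libraries high in lens transcripts was added after seeing the data.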

Additional observations from a re-analysis of the deposited data

Results flagged for a closer look

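None of the 38 muscle genes, nor their sum, had a library that stood apart from the others of its genotype by Dixon's test at the 95% level, applied to log2 CPM. Among the 11 other lists, tested in both genotypes, WT replicate 4 stood apart in the lens list (gap 0.940 of the range of the 5 WT libraries) and in the tendon and sclera list (0.729). Over the 100 groups tested, these were 2, where chance alone gives about 1 in 20.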

How the results depend on the processing

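Each muscle gene had at least 6 read pairs in every library, and the spread between libraries was wide at every level of expression. No muscle gene was past the threshold over all 11 libraries under any of 21 alternatives or at an adjusted p under 0.05, and their median log2 fold change stayed below 0, from -0.62 to -0.21 by method and from -0.92 to -0.16 when each library was left out. The count of genes with an unadjusted p under 0.05 was 3 with the replicate number as a block, a fit that leaves out KO replicate 6 (*Des*, *Ryr1* and *Tcap*) and otherwise 0, or 0 to 10 with each library left out. The deviations of same-numbered libraries correlated at 0.54, 0.63, -0.33, -0.26 and 0.53 for numbers 1 to 5, and differently numbered libraries of one series as strongly (0.58 for WT 2 with KO 1, 0.73 for WT 3 with KO 5), so the numbers are not read as pairs. Within the mouse-number series the count was 0 with the quasi-likelihood test and 0 to 28 with each library left out, where the median ran from -1.05 to -0.25. Within the age series it was 0 with the quasi-likelihood test and without TMM factors, and 0 to 24 with each left out, where the median ran from -0.94 to 0.0356. The interaction count was 0 to 4. Of 30 single genes followed, 21 kept their sign throughout. Of the others, *Tnni1* and *Tnnt1* were above 0 without TMM factors (0.0107 and 0.0236), with the block (0.17 and 0.16) and without the libraries high in lens transcripts (0.22 and 0.11). *Casq2* was above 0 with the block (0.18) and without those libraries (0.11), and *Myoz2* with the block (0.0742). With the series as a covariate, *Sln* (-0.12), *Tnnc1* (-0.0262), *Myl2* (-0.10) and *Myl3* (-0.0839) were below 0. With each library left out, *Sln* ran from -0.16 to 0.30, *Tnnc1* from -0.17 to 0.28, *Myl2* from -0.20 to 0.38, *Myl3* from -0.58 to 0.48, *Tnni1* from -0.30 to 0.21, *Tnnt1* from -0.18 to 0.19, *Casq2* from -0.50 to 0.15, *Mb* from -0.90 to 0.0298 and *Myoz2* from -0.63 to 0.10. The cause was not tested.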
